A study of Bos taurus with 45 samples.

Results

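CDSN (ENSBTAG00000021721) and KLK10 (ENSBTAG00000015129) are 2 of the 24616 genes listed in the RNA-seq files of ruminal papillae, the finger-like folds of the rumen wall. CDSN encodes corneodesmosin, an adhesive glycoprotein of the corneodesmosomes, the junctions that hold dead cells together in a cornified layer. KLK10 encodes kallikrein related peptidase 10, a member of the kallikrein family of secreted serine proteases. The ruminal epithelium is a stratified squamous epithelium whose outermost cells are cornified. In skin, cells are shed from such a layer when proteases, kallikreins among them, cut corneodesmosin and the other junction proteins. The files list gene IDs only, and both names were assigned because the fold changes that the study prints beside them match these IDs and no others among the genes it lists with opposite directions.

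The animals were 15 Angus-Hereford cross-bred yearling heifers, all on the rapid grain adaptation treatment of the study, and each was biopsied once on 0%, once on 72% and once on 89% grain. This gave 45 libraries, 15 per diet. The labels give the same diets as 3%, 75% and 92% grain. The biopsies were taken from the ventral sac on days 3, 15 and 26, so that diet and time since the start cannot be told apart. The heifers of the control treatment were not analysed here. The study sorted the heifers by the change of mean ruminal pH from 72% to 89% grain, with 5 heifers in each group: the pH fell in the down group (DG), rose in the up group (UG) and stayed similar in the balanced group (BG). The pH groups are given by the study and not by the labels.

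Both genes were selected with knowledge of their values on 72% and 89% grain in DG and UG, where they moved in opposite directions. In DG and UG, the change between these 2 diets is therefore given as a description without a test. Free of the choice were only the tests in BG and on 0% grain. The comparisons of all 15 heifers with 0% grain include the DG and UG values on 72% or 89% grain, and their p-values are limited by this for both genes. The papillae were sequenced whole. A lower RPM (reads per 1000000 reads on genes) can mean a smaller share of the cells that make the transcript or less of it per cell. These cannot be told apart.

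In units of 1000000 reads, the libraries held 22.5 to 37.1 on genes, with a median of 30.8 on 0%, 28.4 on 72% and 31.0 on 89% grain. Read counts of CDSN ranged from 8 to 4037 per library and those of KLK10 from 7 to 2921. CDSN was over 1 RPM in 13, 14 and 12 of 15 heifers on 0%, 72% and 89% grain, and KLK10 in 11, 15 and 15. A total of 12337 genes with a mean RPM over 1 across the 45 libraries were tested, and both genes were among them. Of the 45 libraries, 3 stood lowest by their median correlation with the other 14 libraries of their diet, all on 0% grain: heifer 172 of BG (r = 0.956), heifer 170 of DG (r = 0.961) and heifer 294 of BG (r = 0.970). The remaining 42 libraries lay between 0.973 and 0.984. These 3 libraries also held the 3 highest KLK10 values on 0% grain. The comparisons, the correlations on the log scale and the shares of variation over all heifers are therefore given below with and without them.

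CDSN on 0% grain was low in most heifers and very high in a single animal. In BG it was 84.3 RPM in heifer 172, 7.34 in heifer 246, 6.19 in heifer 258, 4.48 in heifer 294 and 2.98 in heifer 362. In DG it was 30.8 RPM in heifer 182, 10.5 in heifer 314, 6.10 in heifer 170, 2.06 in heifer 192 and 0.985 in heifer 236. In UG it was 11.4 RPM in heifer 352, 11.2 in heifer 360, 4.90 in heifer 178, 3.94 in heifer 286 and 0.421 in heifer 262. The ranges of the 3 pH groups overlapped, and the highest library stood 200.2-fold above the lowest.

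On 72% grain, all UG heifers carried more CDSN than any UG heifer had on 0% grain. The UG values were 67.5 RPM in heifer 286, 49.8 in heifer 352, 30.5 in heifer 360, 24.1 in heifer 178 and 16.5 in heifer 262. The DG values were 17.0 RPM in heifer 314, 12.3 in heifer 182, 5.82 in heifer 170, 4.12 in heifer 192 and 1.62 in heifer 236. Only the highest DG value reached into the UG range. The BG values were 73.1 RPM in heifer 172, 19.3 in heifer 258, 17.4 in heifer 246, 6.10 in heifer 362 and 0.991 in heifer 294, a range that covered both other groups.

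On 89% grain the spread of CDSN was wider than on the other diets. In BG it was 146 RPM in heifer 172, 96.1 in heifer 246, 7.74 in heifer 294, 5.88 in heifer 258 and 0.258 in heifer 362. In UG it was 50.3 RPM in heifer 178, 49.6 in heifer 360, 14.3 in heifer 262, 10.4 in heifer 286 and 0.521 in heifer 352. In DG it was 28.8 RPM in heifer 182, 24.2 in heifer 170, 21.9 in heifer 314, 9.80 in heifer 192 and 0.787 in heifer 236. The 3 groups overlapped, and each held 1 heifer below 1 RPM.

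KLK10 on 0% grain was low in most heifers and far higher in 3 of them. In BG it was 89.3 RPM in heifer 172, 41.0 in heifer 294, 3.35 in heifer 362, 1.75 in heifer 246 and 0.691 in heifer 258. In DG it was 61.0 RPM in heifer 170, 8.53 in heifer 314, 1.36 in heifer 182, 1.19 in heifer 192 and 0.276 in heifer 236. In UG it was 9.07 RPM in heifer 352, 1.71 in heifer 286, 1.35 in heifer 360, 0.842 in heifer 262 and 0.304 in heifer 178. The 3 libraries that stood apart held 41.0 to 89.3 RPM, while the other 12 libraries lay between 0.276 and 9.07 RPM with a median of 1.36 RPM. CDSN did not divide the libraries in this way: 7 of the other 12 libraries had more CDSN than the lowest of these 3.

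KLK10 on 72% grain had a single UG heifer far above the others. In UG it was 88.0 RPM in heifer 352, 10.8 in heifer 178, 7.31 in heifer 360, 6.99 in heifer 286 and 2.44 in heifer 262. In DG it was 25.4 RPM in heifer 182, 8.66 in heifer 314, 5.00 in heifer 170, 3.30 in heifer 192 and 1.62 in heifer 236. In BG it was 11.9 RPM in heifer 362, 9.62 in heifer 258, 6.57 in heifer 294, 3.20 in heifer 172 and 1.55 in heifer 246. The groups overlapped, and the heifers with the most KLK10 were no longer those of 0% grain.

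KLK10 on 89% grain was most even in DG, where all 5 heifers were at 8.05 RPM or more. The DG values were 27.9 RPM in heifer 182, 14.5 in heifer 314, 9.24 in heifer 192, 8.26 in heifer 236 and 8.05 in heifer 170. The UG values were 13.6 RPM in heifer 360, 10.1 in heifer 178, 4.52 in heifer 262, 2.17 in heifer 352 and 1.33 in heifer 286. The BG values were 16.4 RPM in heifer 246, 6.92 in heifer 172, 4.05 in heifers 258 and 294 and 3.48 in heifer 362. The highest 2 UG heifers and the highest BG heifer reached into the DG range.

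**Figure D1:**
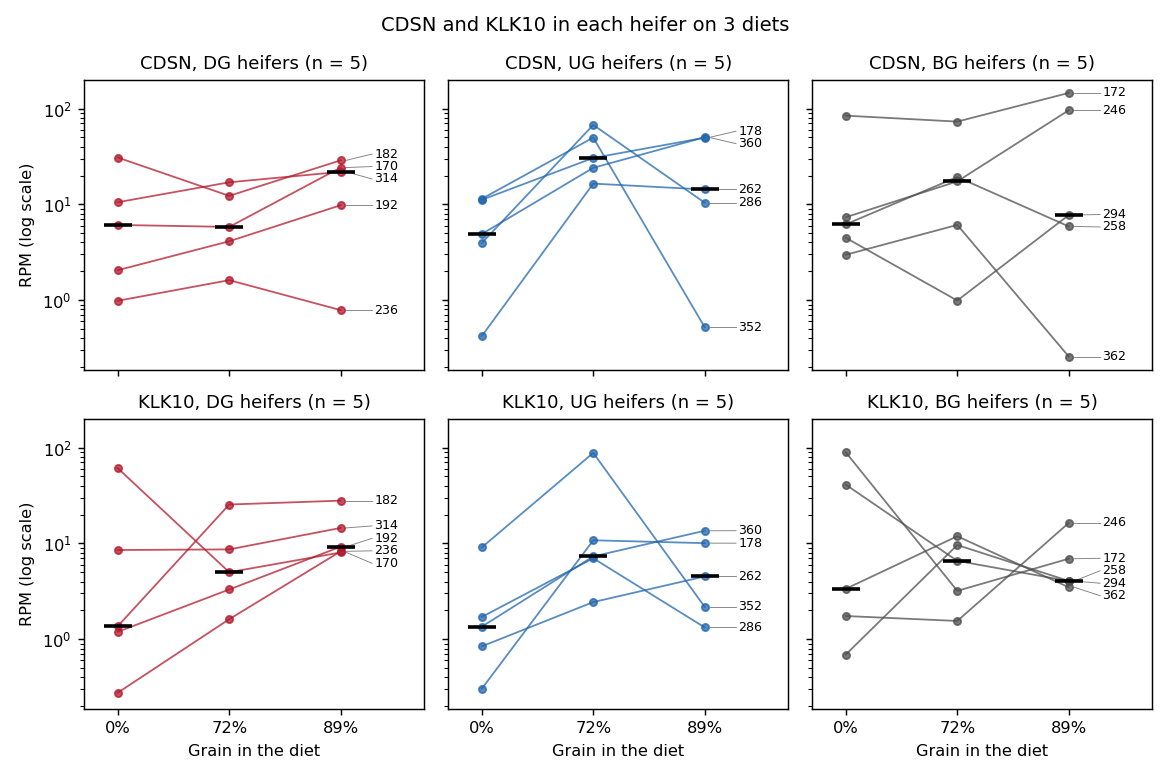
RPM of CDSN (top) and KLK10 (bottom) on a log axis against the grain in the diet, 1 panel per pH group and 1 line per heifer with its number, and black bars at the group median. UG lines of both genes all climb from 0% to 72% grain, and the KLK10 lines of heifers 170, 172 and 294 start between 41.0 and 89.3 RPM and drop.

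Ordered by the median RPM of a pH group on a diet, CDSN went from 4.90 RPM (UG, 0% grain) to 30.5 RPM (UG, 72% grain) and KLK10 from 1.35 RPM (UG, 0% grain) to 9.24 RPM (DG, 89% grain). Both genes thus had their lowest median in UG on 0% grain. The other CDSN medians, in rising order, were 5.82 RPM (DG, 72%), 6.10 RPM (DG, 0%), 6.19 RPM (BG, 0%), 7.74 RPM (BG, 89%), 14.3 RPM (UG, 89%), 17.4 RPM (BG, 72%) and 21.9 RPM (DG, 89%). The other KLK10 medians were 1.36 RPM (DG, 0%), 3.35 RPM (BG, 0%), 4.05 RPM (BG, 89%), 4.52 RPM (UG, 89%), 5.00 RPM (DG, 72%), 6.57 RPM (BG, 72%) and 7.31 RPM (UG, 72%). All 8 steps between neighbours in either order overlapped in range. The mean log2(RPM + 1) of neighbours differed by less than the smaller of their SDs in all steps of KLK10 and in all but 1 of CDSN, the exception being UG on 72% grain, which lay 1.43 above DG on 89% grain.

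Over all 15 heifers, CDSN was 12.5 ± 21.2 RPM on 0%, 23.1 ± 23.0 RPM on 72% and 31.1 ± 40.8 RPM on 89% grain (mean ± SD, n = 15). CDSN was higher on 72% than on 0% grain in 11 of 15 heifers. In the comparison without regard to the heifer, log2(RPM + 1) differed by 1.01 ± 0.52 (SE; 95% interval -0.05 to 2.08) and did not pass the threshold (limma, adjusted p = 0.172). With the heifer as a block, the same difference passed it (limma, adjusted p = 0.0339), and in that fit 1.64% of all tested genes were called (1.52% without the block). Without the 3 libraries that stood apart the unblocked difference was 1.26 (adjusted p = 0.0895). With heifers 172, 170 and 294 left out on both diets, the blocked difference was 1.41 (adjusted p = 0.00917, 1.9% of genes called). The DG and UG values on 72% grain that entered this comparison also entered the choice of the gene. By group, the mean change was 2.58 in UG, 0.09 in DG and 0.36 in BG, the group free of the choice. In BG alone it did not pass with the heifer as a block (limma, adjusted p = 0.590).

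CDSN was higher on 89% than on 0% grain in 10 of 15 heifers, with a difference in log2(RPM + 1) of 0.96 ± 0.62 (SE; 95% interval -0.30 to 2.23; limma, adjusted p = 0.309, and 0.106 with the heifer as a block). In these fits 2.08% and 2.25% of all tested genes were called, and CDSN was called in neither. Without the 3 libraries that stood apart the unblocked difference was 1.22 (adjusted p = 0.215), and without their heifers the blocked one was 0.93 (adjusted p = 0.251). The change of a single heifer ran from -3.03 in heifer 352 to 3.54 in heifer 246 on the log2 scale.

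KLK10 had opposite directions on 2 scales. Its mean was 14.8 ± 27.1 RPM on 0%, 12.8 ± 21.6 RPM on 72% and 8.97 ± 6.95 RPM on 89% grain (mean ± SD, n = 15), a falling order, while its median was 1.71, 6.99 and 8.05 RPM, a rising order. KLK10 was higher on 72% than on 0% grain in 11 of 15 heifers and higher on 89% than on 0% grain in 10 of 15. The difference in log2(RPM + 1) was 0.66 ± 0.59 for 72% grain (SE; 95% interval -0.54 to 1.87; limma, adjusted p = 0.451) and 0.65 ± 0.55 for 89% grain (95% interval -0.47 to 1.77; adjusted p = 0.465). Neither passed the threshold, with or without the heifer as a block. With edgeR on the reads, which models the mean of the reads and not of their logarithm, the differences were -0.34 and -0.81 (adjusted p = 0.802 and 0.446).

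The 3 libraries of 0% grain that stood apart decided this comparison. Without them, the difference of KLK10 was 1.56 for 72% grain and 1.55 for 89% grain, and both were then among the 1.4% and 2.03% of all tested genes called. With the 3 heifers left out on both diets and the heifer as a block, the differences were 1.69 and 1.59, again among the genes called (1.9% and 2.16% of those tested). The 3 libraries were picked by their correlation with the other libraries over all genes, but because they also held the highest KLK10 values, leaving them out necessarily raises the difference, and the DG and UG values on the grain diets had entered the choice of the gene. These values are a description and no test of KLK10. Left out singly, no heifer turned the direction of either gene or brought it past the threshold in the comparisons with 0% grain: CDSN stayed between 0.78 and 1.25 and KLK10 between 0.44 and 1.03 on the log2 scale.

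From 0% to 72% grain, both genes were higher in 10 heifers, both were lower in 3 and the 2 genes went apart in 2. The UG heifers were alike in this step. CDSN was higher on 72% grain in 5 of 5, by 2.58 ± 1.07 on the log2 scale, and KLK10 in 5 of 5, by 2.12 ± 1.01 (SD, n = 5; a description, since the UG values on 72% grain entered the choice of the genes). A higher value in all 5 UG heifers was seen for 18.9% of all tested genes. Values on 72% grain that all lay above those on 0% grain, as for CDSN, were seen for 4.51% of them. In DG the mean changes were 0.09 ± 0.82 for CDSN, higher in 3 of 5 heifers, and 0.43 ± 2.48 for KLK10, higher in 4 of 5.

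From 72% to 89% grain, the step by which the genes were chosen, DG heifers had more of both genes on average. KLK10 was higher in 5 of 5 DG heifers, by 0.90 ± 0.65 on the log2 scale, a direction shared by 4.05% of all tested genes, and CDSN in 4 of 5, by 0.79 ± 0.93 (SD, n = 5). The exception for CDSN was heifer 236, with 47 reads on 72% and 20 reads on 89% grain. Without heifer 170, the mean change of CDSN in DG was 0.51. In UG the mean changes were negative and uneven, at -1.22 ± 2.57 for CDSN and -1.04 ± 2.35 for KLK10, with 3 of 5 heifers lower for each gene. Heifer 352 carried most of both: CDSN went from 49.8 to 0.521 RPM and KLK10 from 88.0 to 2.17 RPM in this animal. Without heifer 352, the UG means were -0.27 for CDSN and -0.09 for KLK10. Heifer 360 of UG had more of both genes on 89% grain.

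The same step in BG, whose values did not enter the choice, had no common direction. CDSN was higher on 89% grain in 3 of 5 BG heifers and KLK10 in 2 of 5. The differences in log2(RPM + 1) were 0.29 (95% interval -2.43 to 3.01) for CDSN and 0.10 (95% interval -0.91 to 1.11) for KLK10. Neither passed the threshold (limma, adjusted p = 0.9997 for both). The exact permutation test without regard to the heifer, two-sided, gave p = 0.881 and 0.849. Paired by heifer, the exact test gave p = 0.8125 and 0.9375, and with 5 pairs it could not fall below 0.0625. No gene was called in this comparison (0% of 12337 by limma and 0 by edgeR), and 278 had an unadjusted p under 0.05. Both intervals come from the fit without the heifer as a block and do not use the pairing. Within BG heifers the change was 0.29 ± 2.21 for CDSN and 0.10 ± 1.75 for KLK10 (SD, n = 5). It ran from -2.50 to 2.40 and from -1.52 to 2.77, ranges that held the mean changes of DG and of UG. Whether the change in BG differed from those in DG and UG was not tested. Single BG heifers moved far in either direction: CDSN went from 17.4 to 96.1 RPM in heifer 246 and from 6.10 to 0.258 RPM in heifer 362, and KLK10 went from 1.55 to 16.4 RPM and from 11.9 to 3.48 RPM in the same animals. In these 2 heifers, both genes moved the same way.

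**Figure D2:**
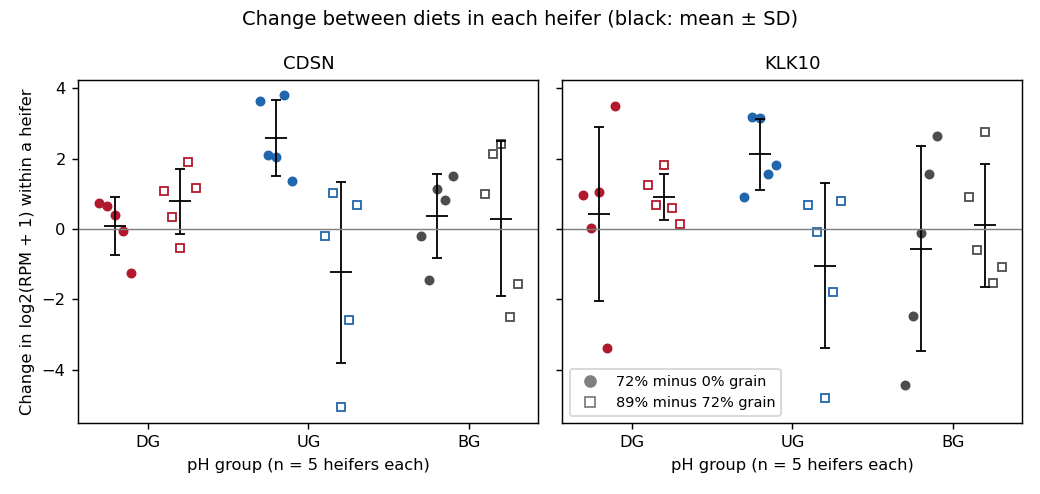
Change in log2(RPM + 1) within each heifer (vertical axis) for DG, UG and BG (n = 5 each), from 0% to 72% grain (filled circles) and from 72% to 89% grain (open squares), with black bars for the mean ± SD. All UG circles lie above 0 for both genes, while the BG points lie on both sides of 0 for both steps.

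In BG against its own 0% grain samples, neither gene passed the threshold. CDSN differed by 0.36 on 72% and 0.65 on 89% grain, and KLK10 by -0.56 and -0.46 (log2 scale; limma, adjusted p from 0.812 to 0.876; 0.073% and 0.0405% of all tested genes were called). KLK10 in BG averaged 27.2 ± 38.6 RPM on 0% grain, 6.56 ± 4.30 RPM on 72% and 6.97 ± 5.42 RPM on 89% grain (SD, n = 5), and the high mean on 0% grain rested on heifers 172 and 294. Without heifer 172 the KLK10 differences were 0.41 and 0.31, and without heifer 294 that of 89% grain was 0.19. Leaving out single heifers, the CDSN difference on 72% grain ran from 0.078 to 0.82.

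On 0% grain, before the grain diets, the pH groups did not separate for either gene. DG against UG differed by 0.27 (95% interval -1.37 to 1.90) for CDSN and 0.93 (-1.10 to 2.96) for KLK10. Without heifer 170 the KLK10 value was 0.04. DG against BG differed by -0.56 (-2.49 to 1.37) and -0.86 (-3.63 to 1.91), and UG against BG by -0.83 (-2.58 to 0.92) and -1.79 (-4.03 to 0.44). Without heifer 172, these values were 0.20 and -0.05 for DG against BG and -0.07 and -0.98 for UG against BG, so KLK10 moved by over 1.5 times in all 3 pairs with the library of a single heifer left out. All adjusted p were 0.787 or more (limma), and no gene was called in any of the 3 comparisons (0% of 12337 by limma and 0 by edgeR), with 955, 314 and 612 genes at an unadjusted p under 0.05. The widest of these differences, KLK10 in UG against BG, had an exact permutation p of 0.214 (two-sided, 0.881 after adjustment over the 12 exact tests in BG and on 0% grain). With 5 against 5 heifers the smallest exact p possible was 0.00794, and differences of up to several log2 units lay within the intervals.

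Both genes varied more between heifers than nearly all other genes. Over the 15 heifers of a diet, the SD of log2(RPM + 1) of CDSN was 1.48 on 0%, 1.58 on 72% and 2.10 on 89% grain, which ranked 41, 14 and 4 from the highest among 12337 genes. That of KLK10 was 2.06, 1.33 and 0.99, which ranked 11, 36 and 93. The median gene had an SD of 0.23, 0.21 and 0.22. The spread of CDSN was thus widest on 89% grain and that of KLK10 on 0% grain. Without the 3 libraries that stood apart, the SD on 0% grain was 1.25 for CDSN and 0.98 for KLK10, which leaves KLK10 about as spread on 0% as on 89% grain. These ranks include the DG and UG values by which the genes were chosen, and only those on 0% grain are free of them.

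The 2 genes divided their variation differently. Of the sum of squares of CDSN over the 45 libraries, 59.2% lay between heifers, 7.13% between diets and 33.7% in the remainder, which holds the different courses of the heifers over the diets. For KLK10 the shares were 28.1%, 4.23% and 67.7%. The median shares over all tested genes were 39.7%, 8.63% and 46.6%. Random variation alone also puts part of the sum of squares between heifers and between diets. The shares are therefore not estimates of a heifer or diet effect. The opposite courses of DG and UG, by which the genes were chosen, enter these remainders. In BG alone, which did not enter the choice, the heifer share was 76.7% for CDSN and 20.6% for KLK10 and the remainder 21.5% and 76.7%, against 33.4% and 41.7% for the median gene (5 heifers). BG includes heifers 172 and 294, and its shares were not computed without them. The shares of KLK10 depended on the libraries that stood apart. Without heifers 172, 170 and 294, 26.1% of its sum of squares lay between heifers, 31.4% between diets and 42.5% in the remainder, while the shares of CDSN were 48.0%, 12.6% and 39.3%.

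**Figure D3:**
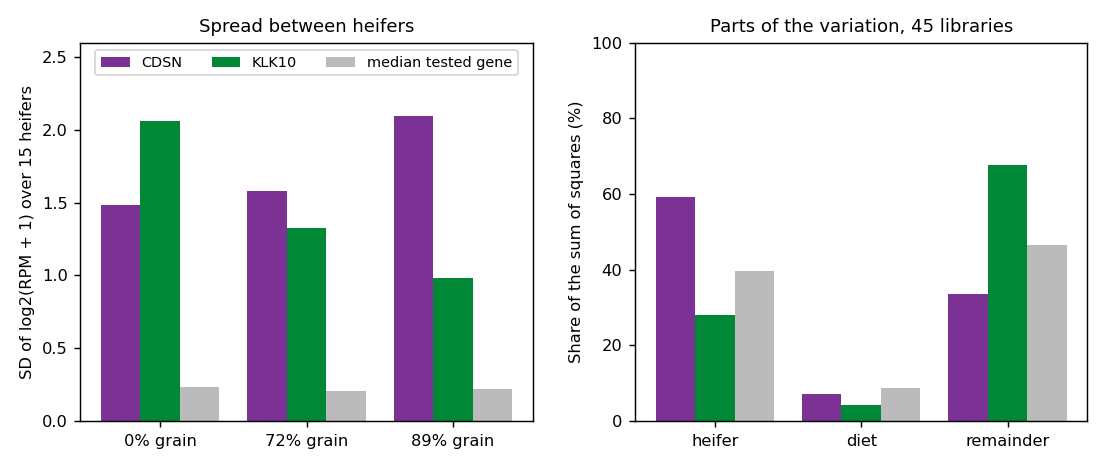
Left, SD of log2(RPM + 1) over 15 heifers on each diet for CDSN, KLK10 and the median of 12337 tested genes. Right, share of the sum of squares (%) between heifers, between diets and in the remainder for the same genes, each share of the median gene being its own median; CDSN has the tallest heifer bar (59.2%) and KLK10 the tallest remainder bar (67.7%).

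The correlation of CDSN on 0% grain with CDSN on each later diet was positive over the heifers, and smaller with the animals below left out. The correlations between diets include the DG and UG values on 72% and 89% grain by which the genes were chosen, and are given as a description without a test. Over 15 heifers, Pearson r of CDSN on 0% grain was 0.520 with 72% grain (Spearman rho 0.554) and 0.527 with 89% grain (rho 0.486). Heifer 172 was highest in CDSN on all 3 diets. Without heifers 172 and 262, the farthest from the median on 0% grain, r was 0.482 and 0.442, and without heifers 172, 170 and 294 it was 0.433 and 0.345.

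For KLK10, r on 0% grain was 0.046 with 72% grain (rho 0.057) and -0.142 with 89% grain (rho -0.225). Without heifers 172 and 170, the farthest from the median, r was 0.336 and -0.251. Without heifers 172, 170 and 294, r was 0.569 and -0.169, so the near-zero value for 72% grain rested on those 3 animals. Heifer 172, the highest for KLK10 on 0% grain, went from 89.3 to 3.20 RPM on 72% grain, while its CDSN went from 84.3 to 73.1 RPM.

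Within a diet, the correlation between CDSN and KLK10 over heifers was positive, but on 0% grain it did not pass the threshold and moved with the animals left out. On 0% grain, r was 0.501 (permutation p = 0.0567) and rho 0.479 (p = 0.0739, n = 15). Without heifer 172, r was 0.216, without heifers 172 and 262 it was 0.138, and without heifers 172, 170 and 294 it was 0.416. On RPM without the log scale r was 0.697 (permutation p = 0.0350), with heifer 172 far above the others in CDSN and also highest in KLK10. The value on RPM without this heifer was not computed. As a description, r was 0.307 on 72% and 0.567 on 89% grain (rho 0.236 and 0.639). All points share a library between the 2 genes, so the composition of the biopsy enters both axes.

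**Figure D4:**
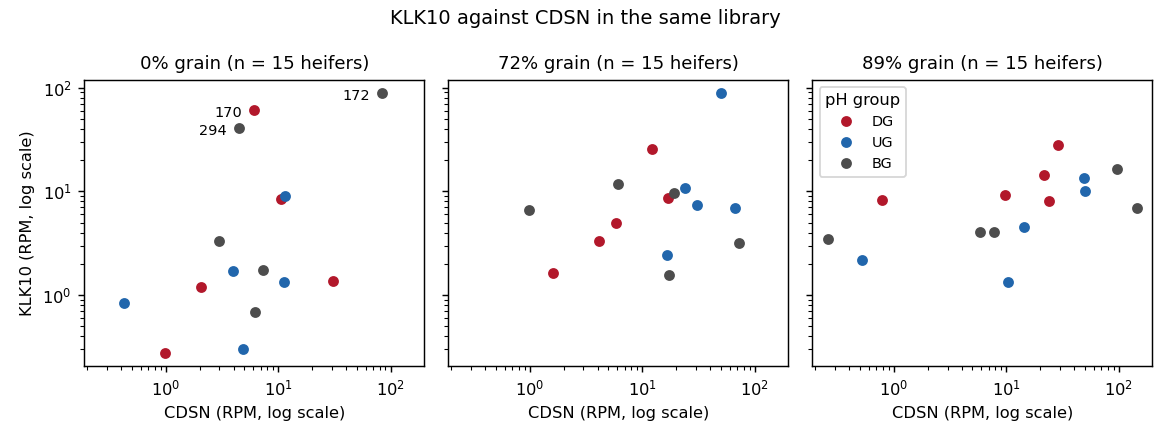
KLK10 against CDSN in the same library, both in RPM on log axes, 1 panel per diet and 1 point per heifer (n = 15), coloured by pH group. On 0% grain, heifers 170, 172 and 294 lie above all others in KLK10 (41.0 to 89.3 RPM), while only heifer 172 of them is also highest in CDSN (84.3 RPM).

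Over all 45 libraries, CDSN and KLK10 correlated with r = 0.451 (0.506 over the 42 libraries without the 3 that stood apart), and neither was among the nearest genes of the other: KLK10 ranked 417 among the genes most like CDSN, and CDSN ranked 810 among those most like KLK10. These correlations are a description over libraries that share heifers and diets. The gene nearest to CDSN was ENSBTAG00000031503 (r = 0.777 over 45 libraries, 0.802 on 0% grain), followed by ENSBTAG00000005206 (r = 0.747 and 0.672). The third, ENSBTAG00000025531 (r = 0.743 and 0.665), had r = 0.694 with KLK10 over 45 libraries. The fourth, ENSBTAG00000010371 (r = 0.725 and 0.549), was assigned to CHAC1, an enzyme that breaks down glutathione, in the same way as the names of CDSN and KLK10 and was listed by the study with the same pair of directions. Its r over 45 libraries thus includes the pattern that chose both genes, and the value on 0% grain does not. Only 8 genes had r over 0.7 with CDSN, and this number was 9 without the 3 libraries that stood apart.

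KLK10 had closer companions. The nearest were ENSBTAG00000009382 (r = 0.914 over 45 libraries, 0.947 on 0% grain) and ENSBTAG00000040177 (r = 0.908 and 0.957), and 54 genes had r over 0.7. Without the 3 libraries, r of these genes was 0.878 and 0.866, and only 14 genes were over 0.7. The 100 nearest genes of CDSN and of KLK10, each list taken from 12336 other genes, shared 10 genes, which is 10% of each list. The overlap of such lists drawn at random was not computed, so whether 10 genes is few or many was not tested. Both lists rest on all 45 libraries and include the DG and UG values by which CDSN and KLK10 were chosen.

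In the RefSeq annotation of the assembly ARS-UCD2.0, CDSN lies between PSORS1C2 and C23H6orf15 and overlaps no other gene, while KLK10 lies between KLK9 and KLK12 within the kallikrein cluster and overlaps LOC104974917. Reads of KLK10 and this neighbour may be split or mixed where the counting did not use strand, whose setting is not stated.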

How the data were processed

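Papillae RNA of 15 heifers on 3 diets was sequenced by the study (TruSeq mRNA libraries, Illumina paired ends, 9 libraries per lane with all diets in each lane; the lane of a sample is not given). The authors used CASAVA 1.8, aligned with TopHat2 2.0.10 to UMD 3.1, counted with htseq-count on Ensembl genes and deposited RPM, 1 file per sample. RPM of a sample sum to 1000000, so their total is the reads on genes, and all values were whole multiples of 1 read (within 0.01 of a read), which gave back the read counts. No 2 libraries agreed within sampling noise (smallest chi-square per degree of freedom 19.7 over 990 pairs).

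Genes with mean RPM over 1 were tested with limma 3.58.1 (R 4.3.3, variance trend) on log2(RPM + 1), a pseudocount of 1, which understates the changes of low genes. A gene was called where p, adjusted by Benjamini-Hochberg over all tested genes, was under 0.05 and the fold change over 1.5. Only the samples compared entered a fit, without a block (whether the study paired by heifer is not stated). The heifer was a block in an alternative: samples of the same heifer deviated together from the diet means (median correlation 0.379 over 45 pairs, against -0.027 for different heifers). Further alternatives were a pseudocount of 0.1, no filter, the study's filter, TMM factors, edgeR 4.0.16 on the reads and leaving out samples. Fits were tested on simulated data. Exact permutation tests used scipy 1.17.1. The p-values of correlations came from 100000 permutations drawn with numpy 2.4.6. Both were two-sided. Libraries of 1 heifer per diet are single biopsies. The p-values of the pH groups on 0% grain measure the spread between heifers. Those of the diet comparisons without a block mix the spread between heifers with that within a heifer. Those with the block measure how unevenly the heifers changed.

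The members and lists were chosen with earlier results of these data known. The named genes were the 2 members and, for each, the 5 genes with the highest r over 45 samples, of which not all IDs are printed. Since the files and the reference pair no ID with a symbol, 8 gene lists of cornified layer biology and the cell type markers could not be matched, and the labelled tissue was not checked against markers. The alternatives that leave out heifers 172, 170 and 294, or each heifer in turn over all 15, were chosen after seeing the data.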

Additional observations from a re-analysis of the deposited data

Results flagged for a closer look

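CDSN in BG on 0% grain was 84.3 RPM in heifer 172, against 2.98 to 7.34 RPM in the other 4 heifers. On the log2(RPM + 1) scale, this value lay further from its neighbour than Dixon's 95% limit for 5 samples allows (gap over range 0.759, limit 0.71). On that scale it was the only such value among 18 combinations of gene, pH group and diet, and chance alone gives about 1 in 20. Values in RPM were not examined in this way. The same library was the one least like the other 14 of its diet (median r = 0.956) and held 89.3 RPM of KLK10. The heifer was also highest for CDSN in the libraries of 72% and 89% grain, at 73.1 and 146 RPM, where KLK10 was 3.20 and 6.92 RPM. Whether the library or the animal differed was not tested.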

How the results depend on the processing

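Of 96 refits of the 16 comparisons of CDSN and KLK10 (leaving out single heifers aside), 88 kept the direction and the side of the threshold, 6 passed it newly and 2 turned the direction. With the heifer as a block, CDSN passed on 72% against 0% grain at an unchanged difference of 1.01, and at 1.41 without heifers 172, 170 and 294, since the block takes out the differences between heifers. These fits include the DG and UG values on 72% grain by which the gene was chosen. In BG alone CDSN did not pass with the block (limma, adjusted p = 0.590). KLK10 passed without the 0% grain libraries of these 3 heifers, at 1.56 on 72% and 1.55 on 89% grain, and in the blocked fit without the 3 heifers, at 1.69 and 1.59, values that are no test since these libraries held its highest levels on 0% grain. The block changed no other call of the 2 genes. KLK10 turned to -0.34 and -0.81 with edgeR on the reads. CDSN does not pass the study's filter as applied here (over 1 RPM in all 15 heifers on a diet) and has no value under it. The study still lists CDSN among the genes changed in both DG and UG.

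On RPM in place of logarithms, the correlation of CDSN and KLK10 on 0% grain passed at r = 0.697. Heifer 172 was highest in both genes there, at 84.3 RPM of CDSN and 89.3 RPM of KLK10. Correlations on RPM without this heifer were not computed. As a description, that of CDSN between 0% and 89% grain was 0.773, with heifer 172 highest on both diets (84.3 and 146 RPM). That of KLK10 between 0% and 72% grain turned to -0.121. Exact tests on RPM changed none of 12 calls.

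Leaving out single heifers, the BG differences of 89% from 72% grain ran from -0.23 to 0.99 for CDSN and from -0.57 to 0.51 for KLK10. Against 0% grain in BG, KLK10 ran from -1.36 to 0.41 on 72% and from -1.24 to 0.31 on 89% grain, and CDSN from -0.067 to 1.23 on 89% grain. On 0% grain, CDSN ran from -0.28 to 0.72 for DG against UG and from -1.11 to 0.20 for DG against BG. None of these passed the threshold.

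The number of genes called was 367 in place of 188 (72% against 0% grain) and 402 in place of 256 (89% against 0% grain) with a pseudocount of 0.1. In BG, the 9 genes called on 72% against 0% grain became 0 with that pseudocount, without a filter, with TMM factors and with edgeR, 16 with the study's filter and 126 with the block, and ran from 0 to 26 leaving out single heifers. The 5 called on 89% grain became 0 without a filter, with TMM and with edgeR and 1 with the block, and ran from 0 to 19. Lower limits were set by depth: the lowest values of both genes rest on 7 or 8 reads.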
